A study of Mus musculus with 59 samples.

Results

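The mRNAs of 9 pluripotency genes were followed in mouse embryonic stem cells (ESCs) after transcription was stopped: Klf2, Klf4, Klf5, Sox2, Mycn, Zfp42, Dppa3, Sall4 and Fbxo15. The genes were chosen by name, with earlier results of these data known. All 9 were found among the 23974 gene symbols of the deposited RNA decay table. They were tested among the 6952 genes whose mean value was at least 10. Total RNA was sequenced from control ESCs and from ESCs knocked out for Zcchc8 (KO), the scaffold of the nuclear exosome targeting complex. Actinomycin D, a drug that blocks transcription, was given at 5 µg/ml, and cells were taken at 0, 4 and 8 h. Each of the 6 groups had 2 libraries, which makes 12 of the series' 59 samples. Per the labels, all cells were BDF1-derived lines grown with serum, leukaemia inhibitory factor (LIF), CHIR99021 and PD0325901. Since no label says that the 2 libraries of a group stem from different cultures, the p-values speak for the spread of these libraries, which may be technical.

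Naive pluripotency is held by a network of transcription factors around Pou5f1 and Sox2 that LIF and the 2 inhibitors keep active, with Klf2, Klf4 and Klf5 as partly redundant members. A short-lived mRNA lets such a factor fall soon after its gene is switched off, whereas a long-lived one buffers the protein. AU-rich elements in the 3′ untranslated region (UTR), whose core is the pentamer ATTTA in DNA letters, are a known feature of many unstable mRNAs, including those of cytokines and proto-oncogenes.

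Of the 9 genes, 7 held at least 1 ATTTA in the 3′ UTR of their matched transcript (GENCODE M21, GRCm38, a later build than the mm9 named in the submitters' processing notes). The same was true of 69.7% of the 6190 tested genes with a 3′ UTR of at least 100 bases. Fbxo15, with no annotated 3′ UTR in its matched transcript, falls outside that background. Most tested genes also held the pentamer, so holding it did not set these genes apart. The sites below are from the 5 mRNAs that kept the least at 4 h in control and, in Dppa3, from the one whose share left differed most between the genotypes. They are written 5′ to 3′ on the mRNA's strand, with the pentamer in capitals.

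Klf2: agactgctATTTAttggacct
Mycn: atgtatatATTTAgtgctgca
Sox2: ccagtaatATTTAgagctaga
Klf4: taatataaATTTAagcaaact
Klf5: ttatcattATTTAttttgtgg
Dppa3: cgatccagATTTAtgtgaagt

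The Klf2 site spans bases 73 to 93 after the stop codon (chromosome 8), the Mycn site 833 to 853 (chromosome 12), the Sox2 site 386 to 406 (chromosome 3), the Klf4 site 843 to 863 (chromosome 4), the Klf5 site 1334 to 1354 (chromosome 14) and the Dppa3 site 141 to 161 (chromosome 6). Sox2 and Klf5 each held 4 pentamers, and Klf2, Klf4, Mycn, Sall4 and Dppa3 held 1 each. The longer element TTATTTATT, which contains the pentamer, was found in Klf5 alone among the 9 and in 7.29% of tested genes. The Zfp42 3′ UTR of 529 bases held no pentamer, and the matched Fbxo15 transcript has no annotated 3′ UTR. Pentamers per kb were above the tested median of 1.33 in 4 of the 9 genes (Dppa3, Sox2, Klf5 and Klf2), with no value for Fbxo15. Motifs were sought on the mRNA's strand only. The transcripts had few exons: 1 in Sox2, 3 in Klf2 and Mycn, 4 in Klf5, Zfp42, Dppa3 and Sall4, 5 in Klf4 and 10 in Fbxo15, against a median of 9 over tested genes.

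All values are the authors' normalised read counts, meaning reads divided by 1 factor per library. Libraries held 465324 to 1364523 counted reads, each read standing for 0.452 to 3.23 units depending on the library. The 2 control 0 h libraries stood apart in scale, with the median gene 0.81 higher on the log2 scale in replicate 2 than in replicate 1. Zcchc8, the targeted gene, was 59.3 and 77.5 in control and 25.3 and 5.29 in KO at 0 h (log2 change −2.42, SE 0.681, adjusted p = 0.0332 by limma). At 4 h its log2 change was −0.71 (adjusted p = 0.845 by limma) and at 8 h −0.53 (adjusted p = 0.638), where control read 7.57 and 11.3 and KO 9.56 and 3.78, so its level did not separate the libraries by genotype at 8 h. Among 10 ESC markers, 7 were read in every library (Pou5f1, Utf1, Tdgf1, Dppa5a, Lin28a, Fgf4 and L1td1), Esrrb and Zscan10 were listed at 0 throughout, and Nanog was read in 1 library only, with 4 reads. The summed level of 12 fibroblast markers was 5182 to 8469 in control and 12340 to 16200 in KO at 0 h, with 5 of 10 tested markers called higher in KO, against 4.23% of tested genes, and with Pdgfrb and Postn at 0 in every library. It was 7529 to 9008 in control and 15240 to 16540 in KO at 4 h, and 6699 to 8328 and 9228 to 12030 at 8 h. Its part in the results below was not tested. In such bulk samples, fewer cells of a type and less RNA per cell cannot be told apart.

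Before the drug, Sox2 was the most abundant of the 9 mRNAs per length of transcript in each of the 4 libraries, while Mycn and Sall4 had the lowest means per kb. In single libraries others were lowest: Dppa3 in control replicate 2, and Fbxo15 and Dppa3 in KO replicate 1 (11.7 and 14.2 per kb). Per kb, Sox2 stood at 297 and 551 normalised reads in the control libraries, Klf4 at 178 and 403, and Klf2 at 137 and 355. Within each library these 3 kept the same order, while between the libraries their ranges overlapped. Klf5 (56.6 and 100.2), Zfp42 (45.3 and 89.3), Fbxo15 (51.3 and 67.4) and Dppa3 (82.2 and 38.8) formed an overlapping middle group in control. Sall4 stood at 28.6 and 38.8 and Mycn at 25.1 and 42.3, which could not be separated from each other. KO libraries gave the same 3 leading genes, with means per kb of 418 for Sox2, 259 for Klf4 and 220 for Klf2.

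**Figure D1:**
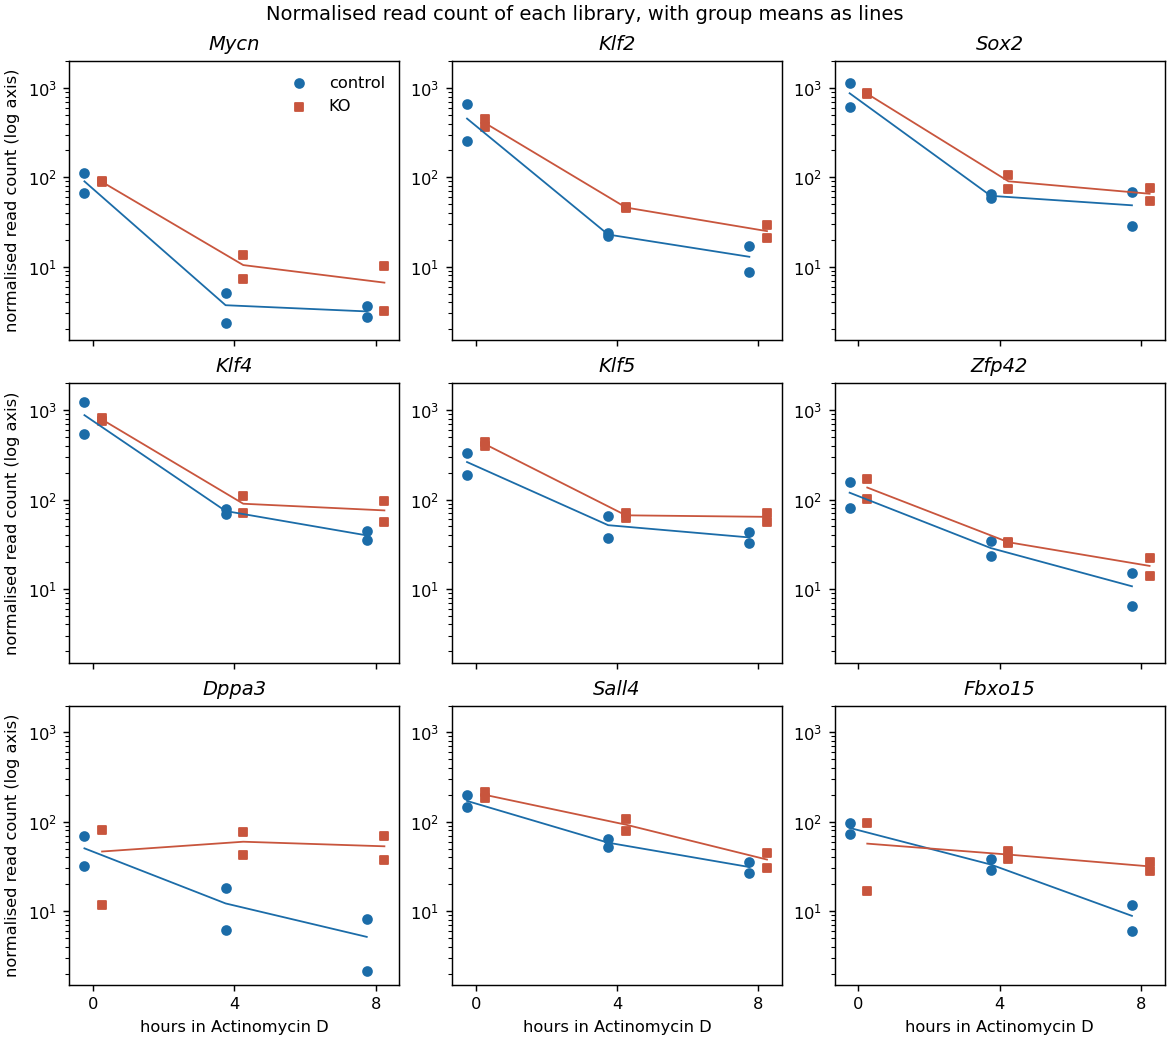
Normalised read count (log axis) of the 9 mRNAs in each of the 12 libraries against hours in Actinomycin D, with circles for control, squares for KO and lines through the group means. Sox2 fell from 611 and 1134 to 65.5 and 58.7 within 4 h in control, whereas Dppa3 in KO read 42.0 and 77.5 at 4 h.

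After 4 h without transcription, control ESCs kept a few percent of their Mycn, Klf2, Sox2 and Klf4 mRNA, while the median tested gene kept 66.8%. Share left is the mean of the later libraries over the mean of the 0 h libraries, and its range is over the 4 pairs of 1 later and 1 earlier library. In order, 4.11% was left of Mycn, 5.04% of Klf2, 7.12% of Sox2, 8.46% of Klf4, 19.7% of Klf5, 24.0% of Zfp42, 24.2% of Dppa3, 34.1% of Sall4 and 38.9% of Fbxo15. All 9 kept less than the median gene, and 5 of the 9 kept less than 22.1%, the lowest decile of tested genes.

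The Krüppel-like factors are zinc-finger proteins that bind GC-rich promoter elements, and Klf2 and Klf4 were among the 4 mRNAs with the least left at 4 h. Klf2 read 253 and 656 in the control 0 h libraries, 21.8 and 23.9 at 4 h, and 8.65 and 17.2 at 8 h. Every later library was below both 0 h libraries, with a log2 change of −4.10 at 4 h (SE 0.463, adjusted p = 1.06e-08 by limma) and −4.95 at 8 h (adjusted p = 2.37e-11). Klf4, one of the reprogramming factors, read 539 and 1221 at 0 h, 79.3 and 69.5 at 4 h, and 35.1 and 44.3 at 8 h. Its log2 change was −3.43 at 4 h (SE 0.413, adjusted p = 4.77e-08 by limma). Klf5, which also acts in the early embryo, lost less: it read 190 and 336 at 0 h, 66.2 and 37.1 at 4 h, and 32.4 and 42.9 at 8 h. The log2 change of Klf5 was −2.33 at 4 h (SE 0.416, adjusted p = 9.84e-05 by limma), and more Klf5 than Klf4 was left in all 4 pairs of libraries. The normalised reads of Klf4 and Klf2 at 4 h differed little between replicates, so the spread in their share left at 4 h came mainly from the 0 h libraries.

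Sox2, the SoxB-class factor that binds DNA with Pou5f1, read 611 and 1134 at 0 h, 65.5 and 58.7 at 4 h, and 28.6 and 68.7 at 8 h. By limma, Sox2 changed by −3.73 on the log2 scale at 4 h (SE 0.417, adjusted p = 9.45e-09). Mycn, the Myc family factor of proliferating stem and neural cells, read 67.2 and 113 at 0 h, 5.09 and 2.32 at 4 h, and 2.70 and 3.61 at 8 h. These later values rest on 7, 3, 5 and 8 reads, so the place of Mycn ahead of Klf2 at 4 h was not resolved, and Mycn kept less than Klf2 in 3 of 4 pairs. The log2 change of Mycn was −4.29 at 4 h (SE 0.708, adjusted p = 2.53e-05 by limma).

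The remaining 4 mRNAs kept 24.0% to 38.9% at 4 h in control and 8.97% to 18.2% at 8 h. At 8 h less Zfp42 and less Fbxo15 than Klf5 was left in all 4 pairs of libraries. Zfp42, which encodes the zinc-finger protein Rex1 and marks naive ESCs, read 80.3 and 158 at 0 h, 23.3 and 34.0 at 4 h, and 6.49 and 14.9 at 8 h. Sall4, a zinc-finger partner of Pou5f1, read 145 and 197 at 0 h, 51.7 and 64.9 at 4 h, and 27.0 and 35.2 at 8 h. Both were lower at 4 h in each library, by a log2 change of −1.97 for Zfp42 (SE 0.518, adjusted p = 0.0082 by limma) and −1.53 for Sall4 (SE 0.420, adjusted p = 0.0113). Dppa3, also called Stella, protects maternal methylation in the zygote, and Fbxo15 is an F-box gene long used as an ESC reporter. Dppa3 read 68.5 and 32.3 at 0 h, 18.2 and 6.18 at 4 h, and 2.16 and 8.13 at 8 h, the last on 4 and 18 reads. Fbxo15 read 73.8 and 96.9 at 0 h, 37.8 and 28.6 at 4 h, and 5.94 and 11.7 at 8 h. The Fbxo15 groups did not overlap, but its log2 change of −1.34 at 4 h (SE 0.573) did not pass the test (adjusted p = 0.121 by limma) and that of −3.18 at 8 h did (adjusted p = 2.47e-05).

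At 8 h, 2.84% was left of Klf2, 3.50% of Mycn, 4.51% of Klf4, 5.58% of Sox2, 8.97% of Zfp42, 10.2% of Dppa3, 10.4% of Fbxo15, 14.3% of Klf5 and 18.2% of Sall4, and the median gene kept 36.3%. Between 4 and 8 h, Fbxo15 kept 26.6% and Zfp42 37.4% of the 4 h level, whereas Klf5 kept 72.9%, Sox2 78.4% and Mycn 85.2%. The median gene kept 55.9%. The Mycn value rests on 10 reads at 4 h and 13 at 8 h, and the 8 h replicates of Sox2 differed (28.6 and 68.7). By mean share Klf5 moved from the fifth place at 4 h to the eighth at 8 h, while its 4 h and 8 h libraries overlapped. None of the 9 was called lower at 8 h than at 4 h by limma (background 4.63% of tested genes). An unadjusted p below 0.05 was found for 4 (Fbxo15, Klf4, Sall4 and Zfp42). By edgeR 1 was called, Fbxo15 (adjusted p = 0.0342), beside 577 of the 6952 tested genes called lower.

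The 9 genes were chosen with earlier results of these data known, so counts of loss, here and in KO, are descriptions and not independent evidence. Of the 9 mRNAs, 8 were called lower at 4 h in control, against 11.8% of tested genes, and all 9 at 8 h, against 53.5%. At 8 h the background is so high that the count says little about these genes. Without overlap between groups, 9 of 9 were lower at both times, against 39.3% of tested genes at 4 h and 73.8% at 8 h. The median log2 change of the 9 was −2.33 at 4 h, beside −0.49 over all tested genes, and −3.38 at 8 h, beside −1.33. With scaling by TMM, which sets the typical gene to no change, 6 of 9 were called lower at 4 h (6.78% of tested genes) and 8 of 9 at 8 h (11.2%). On that scale the median gene kept 102% at 4 h and 99.99% at 8 h, and the 9 kept 6.70% (Mycn) to 59.4% (Fbxo15) at 4 h and 8.02% (Klf2) to 48.1% (Sall4) at 8 h. Those that missed the call under TMM were Dppa3, Sall4 and Fbxo15 at 4 h and Dppa3 at 8 h. Leaving out control 0 h replicate 2 or control 4 h replicate 1 lowered the 4 h count from 8 to 5, with Zfp42, Sall4 and Dppa3 no longer called. Without control 0 h replicate 2 the shares left at 4 h and 8 h were 9.05% and 5.10% for Klf2 and 13.8% and 7.37% for Klf4. Without control 0 h replicate 1 those of Dppa3 were 37.7% and 15.9%. These shares moved by more than 1.5 times. Without control 4 h replicate 1, 2.57% of Mycn and 12.3% of Dppa3 was left at 4 h. At 8 h, leaving out control replicate 2 gave 5.44% for Zfp42, 3.28% for Sox2 and 4.29% for Dppa3, and leaving out replicate 1 gave 16.1% for Dppa3.

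**Figure D2:**
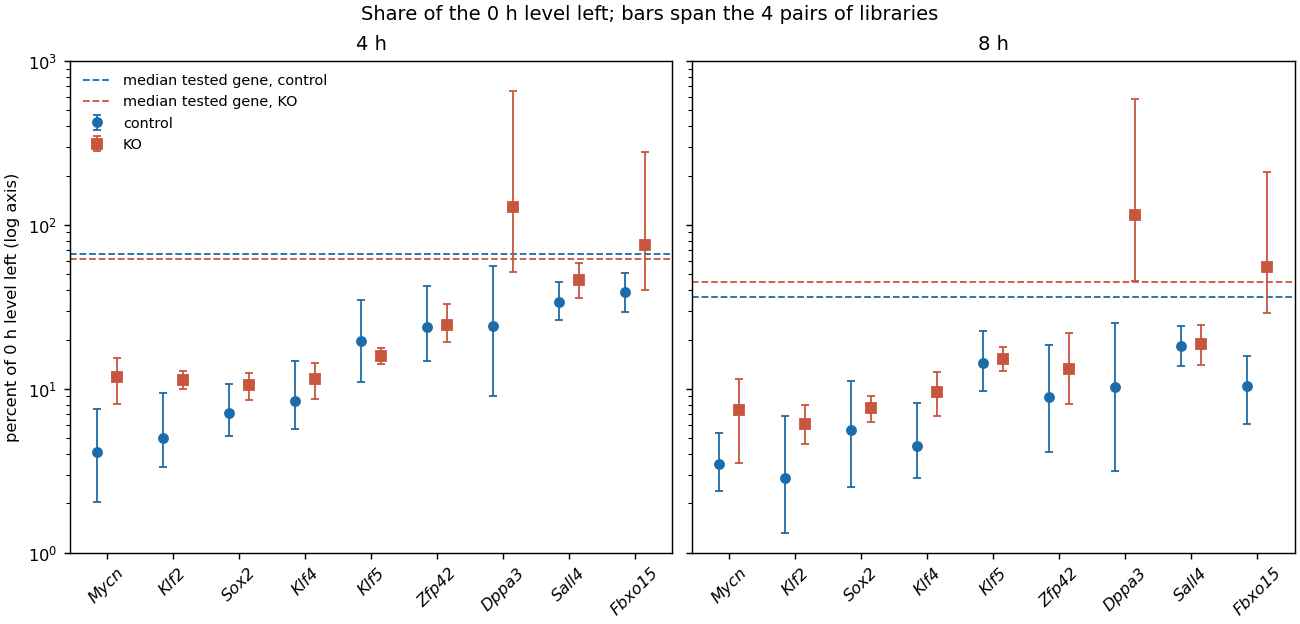
Percent of the 0 h level left (log axis) at 4 h and 8 h for the 9 mRNAs in control (circles) and KO (squares); bars span the 4 pairs of libraries and dashed lines mark the median tested gene. Mycn, Klf2, Sox2 and Klf4 lie between 4.11% and 11.8% at 4 h in both genotypes, and the KO bars of Dppa3 (51.8% to 657%) and Fbxo15 (39.96% to 280%) are the widest at that time.

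In KO the same 4 mRNAs kept the least at 4 h, with 10.5% of Sox2, 11.3% of Klf2, 11.4% of Klf4 and 11.8% of Mycn left. Then came Klf5 with 15.9%, Zfp42 with 24.4%, Sall4 with 46.3%, Fbxo15 with 75.4% and Dppa3 with 129%, around a median gene of 61.8%. At 8 h the shares were 6.14% for Klf2, 7.47% for Mycn, 7.62% for Sox2, 9.63% for Klf4, 13.3% for Zfp42, 15.3% for Klf5, 18.8% for Sall4, 55.6% for Fbxo15 and 114% for Dppa3, around a median gene of 45.1%. On these values Dppa3 and Fbxo15 go against the name of a short-lived mRNA in KO, where 1 of the 0 h libraries was low for both, as described further on. The other 7 kept less than the median gene at both times.

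Klf2 in KO read 453 and 361 at 0 h, 45.4 and 46.5 at 4 h, and 21.0 and 29.0 at 8 h. Sox2 read 852 and 867 at 0 h, 74.0 and 107 at 4 h, and 54.2 and 76.8 at 8 h. Their log2 changes at 4 h were −3.11 for Klf2 (SE 0.463, adjusted p = 4.35e-06 by limma) and −3.26 for Sox2 (SE 0.417, adjusted p = 1.87e-07). Klf4 read 812 and 758 at 0 h, 70.1 and 109 at 4 h, and 55.5 and 95.7 at 8 h. Klf5 read 438 and 398 at 0 h, 71.2 and 62.0 at 4 h, and 71.4 and 56.7 at 8 h. From 4 to 8 h Klf5 kept 96.2% of its level in KO, and its 4 h and 8 h libraries overlapped. Mycn read 87.6 and 89.9 at 0 h, 7.29 and 13.6 at 4 h, and 3.19 and 10.1 at 8 h. Zfp42 read 170 and 102 at 0 h, 33.6 and 32.9 at 4 h, and 22.3 and 13.9 at 8 h. Sall4 read 217 and 183 at 0 h, 107 and 78.5 at 4 h, and 45.3 and 30.2 at 8 h. All 7 genes read lower in every later library than in both 0 h libraries. Sall4 at 4 h (log2 change −1.11, SE 0.420) was outside the call (adjusted p = 0.0663 by limma).

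By limma, 6 of the 9 were called lower at 4 h in KO, against 14.4% of tested genes, and 7 of 9 at 8 h, against 40.5%. Lower without overlap were 7 of 9 at both times, against 62.8% and 78.0% of tested genes. After TMM scaling the counts were 5 of 9 at 4 h (4.63% of tested genes) and 7 of 9 at 8 h (5.7%), with Zfp42 no longer called at 4 h. The KO share left of Mycn at 8 h was 11.3% without KO 8 h replicate 1 and 3.59% without replicate 2. Leaving out 1 library at a time gave 4 to 7 calls at 4 h, the lowest without KO 4 h replicate 1, where neither Mycn nor Zfp42 was called. None of the 9 was called between 8 and 4 h in KO by limma (0.0288% of tested genes) or edgeR, and 1, Sall4, had an unadjusted p below 0.05.

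The order of the 9 mRNAs was much alike in the genotypes, with Spearman's rho of 0.83 over 9 genes at 4 h and again at 8 h, given as a description since the genes share their libraries. Within a pair of libraries the order does not depend on scaling. In control at 4 h, 3 of the 8 neighbouring steps held in all 4 pairs: Klf2 below Sox2, Sox2 below Klf4, and Klf4 below Klf5. Zfp42, Dppa3, Sall4 and Fbxo15 could not be ordered from neighbour to neighbour there. In control at 8 h, 4 of 8 steps held: Mycn below Klf4, Sox2 below Zfp42, Fbxo15 below Klf5, and Klf5 below Sall4. In KO at 4 h, 3 of 8 steps held (Klf5 below Zfp42, Zfp42 below Sall4, and Fbxo15 below Dppa3), and the 4 least stable mRNAs could not be told apart. In KO at 8 h, 4 of 8 steps held: Sox2 below Klf4, Klf5 below Sall4, Sall4 below Fbxo15, and Fbxo15 below Dppa3.

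Genotype was compared at each time. Before the drug none of the 9 mRNAs was called higher or lower in KO by limma or edgeR, against 4.23% and 0.0719% of tested genes called by limma, and none had an unadjusted p below 0.05. The median log2 change of the 9 was 0.03, beside 0.44 over all tested genes. After TMM scaling it was −0.40, beside 0.01, with 8 of the 9 below 0 and none called. Klf5 read 190 and 336 in control and 438 and 398 in KO, without overlap, and its log2 change of 0.72 (95% interval −0.11 to 1.56) did not pass (adjusted p = 0.379 by limma). The intervals allow sizeable differences: for Klf2 the log2 change of −0.01 had an interval of −0.94 to 0.92.

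**Figure D3:**
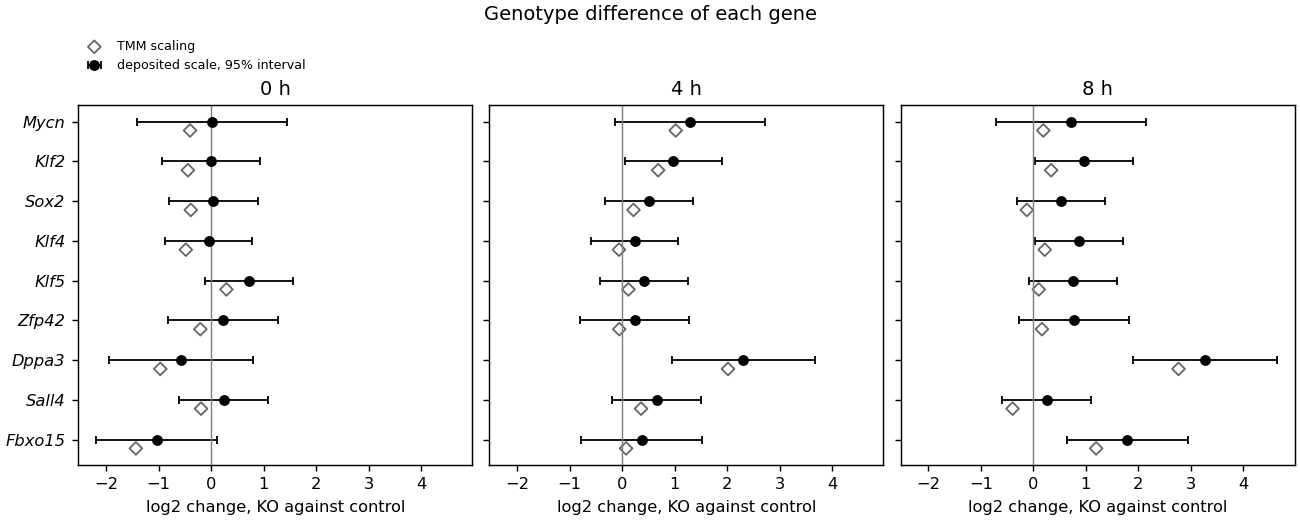
Log2 change of KO against control at 0, 4 and 8 h for the 9 mRNAs on the deposited scale (filled points, bars for the 95% interval) and after TMM scaling (open diamonds). Dppa3 at 8 h stands at 3.27 on the deposited scale and 2.76 after TMM.

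At 4 h none of the 9 was called between genotypes by limma (0.748% of tested genes were called higher) or edgeR, and 2, Dppa3 and Klf2, had an unadjusted p below 0.05. All 9 log2 changes were above 0 on the deposited scale, with a median of 0.51 beside 0.29 over all tested genes, and 7 of 9 after TMM scaling. Klf2 read 21.8 and 23.9 in control and 45.4 and 46.5 in KO, without overlap, with a log2 change of 0.98 (SE 0.463, adjusted p = 0.463 by limma).

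At 8 h Dppa3 was higher in KO. It was the 1 gene of the 9 called by limma, against 4.88% of tested genes. By edgeR 2 were called, Dppa3 and Fbxo15, beside 574 of the 6952 tested genes called higher. Dppa3 read 2.16 and 8.13 in control and 37.0 and 69.3 in KO, so the groups did not overlap. By limma the log2 change was 3.27 (SE 0.678) with an adjusted p of 0.00187, and edgeR gave 3.29 (adjusted p = 0.000432). After TMM scaling, where 1.44% of tested genes were called higher, the call was lost. There the log2 change of Dppa3 was 2.76 (adjusted p = 0.0933 by limma). The call was also lost with DESeq2 size factors and with no filter on low values (adjusted p = 0.0572 by limma). It was lost again without control 8 h replicate 1 (log2 change 2.50) and without KO 8 h replicate 2 (2.82). Over all alternatives the adjusted p ran from 0.000189 to 0.153. Fbxo15 read 5.94 and 11.7 in control and 28.0 and 35.3 in KO, again without overlap, with a log2 change of 1.79 (SE 0.573, adjusted p = 0.0583 by limma and 0.0403 by edgeR). Klf2 and Klf4 were the other genes with an unadjusted p below 0.05 at 8 h, with log2 changes of 0.96 and 0.87, which were 0.34 and 0.22 after TMM. The median log2 change of the 9 at 8 h was 0.77, close to the 0.63 of all tested genes.

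Whether an mRNA was lost to a different extent in the genotypes was tested as the difference of loss. None of the 9 was called at 4 h or at 8 h by limma (0.0144% of tested genes called higher at each time) or edgeR. With an unadjusted p below 0.05 were Dppa3 at 4 h and Dppa3 and Fbxo15 at 8 h. The difference at 8 h was 3.83 for Dppa3 (SE 0.959, unadjusted p = 0.000244, adjusted p = 0.243 by limma) and 2.82 for Fbxo15 (SE 0.811, adjusted p = 0.543). For Klf2 it was 0.97, for Klf4 0.92, for Mycn 0.695, for Zfp42 0.55 and for Sox2 0.48. The smallest were those of Klf5 and Sall4, at 0.03 (95% interval −1.16 to 1.22) and 0.02 (−1.18 to 1.21), which does not show equal loss. The median difference of the 9 was 0.46 at 4 h, beside −0.16 over all tested genes, and 0.695 at 8 h, beside 0.18.

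The differences of Dppa3 and Fbxo15 rest in part on 1 library. In KO at 0 h Dppa3 read 11.8 (7 reads) in replicate 1 and 81.1 (46 reads) in replicate 2. Fbxo15 read 16.8 (10 reads) and 97.0 (55 reads) in the same libraries. Only 0.36% of tested genes were as far apart between these replicates as Dppa3 and 0.647% as far as Fbxo15. For each of the other 7 genes at least 26.1% of tested genes were as far apart. Dppa3 also differed between the control replicates, where 7.4% of tested genes were as far apart at 0 h, 2.70% at 4 h and 9.22% at 8 h. Later KO libraries read 42.0 and 77.5 at 4 h and 37.0 and 69.3 at 8 h for Dppa3, and 47.1 and 38.7 and then 28.0 and 35.3 for Fbxo15.

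Without KO 0 h replicate 1, the KO share left of Dppa3 was 73.7% at 4 h and 65.5% at 8 h, and that of Fbxo15 was 44.2% and then 32.6%. Without the same replicate 1, the log2 change of Dppa3 in KO turned from 0.84 to −0.50 at 4 h and from 0.67 to −0.67 at 8 h, and that of Fbxo15 at 4 h from 0.06 to −1.16. Without replicate 1 the KO against control change at 0 h also turned from −0.57 to 0.77 for Dppa3 and from −1.03 to 0.20 for Fbxo15. Without replicate 1 the difference of loss at 8 h fell to 2.49 for Dppa3 (adjusted p = 0.998 by limma) and 1.59 for Fbxo15 (adjusted p = 0.998). The log2 change of Dppa3 at 8 h between genotypes does not use that library's values and stayed 3.27. Its p-value does depend on that library, since all groups share an estimate of the spread. Without the other library, KO 0 h replicate 2, the KO share left was 507% at 4 h and 451% at 8 h for Dppa3 and 255% and 188% for Fbxo15. Without replicate 2 the difference of loss at 8 h was 5.18 for Dppa3 (adjusted p = 0.0183 by limma) and 4.05 for Fbxo15 (adjusted p = 0.0321).

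Over the 12 libraries, each gene's log2 profile after centring on the median gene was set against the mean of the other 8. Pearson's r, given as a description, was 0.95 for Klf2, 0.93 for Sox2, 0.92 for Klf4, 0.91 for Mycn, 0.83 for Klf5, 0.82 for Zfp42 and 0.69 for Sall4. For Fbxo15 and Dppa3 it was 0.23 and 0.11. Of 2804 genes with a mean of at least 50, the 5 most like the mean profile were Rn45s, the ribosomal RNA precursor (r = 0.96), Mcl1, a short-lived survival factor of the Bcl2 family (0.94), Sbno2 (0.94), Hist1h3f, a replication-dependent histone gene (0.94), and 5830418K08Rik (0.94). At 4 h in control, 1.23% was left of Rn45s and 20.0% of Mcl1.

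Other genes of the network were taken from a list of 33, of which 19 were tested. Of these 19, 6 were called lower at 4 h and 15 at 8 h in control, and 7 and 15 in KO. The shares of all tested genes called lower were 11.8% and 53.5% in control and 14.4% and 40.5% in KO. After TMM 5 and 7 were called lower in control (6.78% and 11.2% of tested genes) and 3 and 3 in KO (4.63% and 5.7%). Called higher after TMM were 2 at 4 h and 3 at 8 h in control, and none in KO. On the deposited scale the median log2 change of the 19 at 4 h was −1.04 in control and −0.71 in KO. The most abundant were Trim28, a corepressor, with 103% left at 4 h in control, Tfcp2l1, a naive factor downstream of LIF, with 83.2%, Dppa5a, an RNA-binding ESC marker, with 112%, and L1td1, an RNA-binding protein, with 47.3%.

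Pou5f1 and Sox2, which act as partners on DNA, differed in how much mRNA was left. Pou5f1 read 186 and 294 in control at 0 h, 223 and 314 at 4 h, and 144 and 201 at 8 h. That leaves 112% at 4 h and 72.1% at 8 h, against 7.12% and 5.58% of Sox2. In KO, 90.7% and 52.8% of Pou5f1 was left, against 10.5% and 7.62% of Sox2. In control all 9 short-lived mRNAs kept less than Pou5f1 in each of the 4 pairs of libraries at both times. In KO 7 of the 9 did, the exceptions being Dppa3 and Fbxo15. By mean share, most tested genes also kept less than Pou5f1. The upper quartile of tested genes was 94.2% at 4 h and 56.5% at 8 h in control. In KO it was 84.9% and 64.3%. The counts thus say little about the 9 genes themselves.

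**Figure D4:**
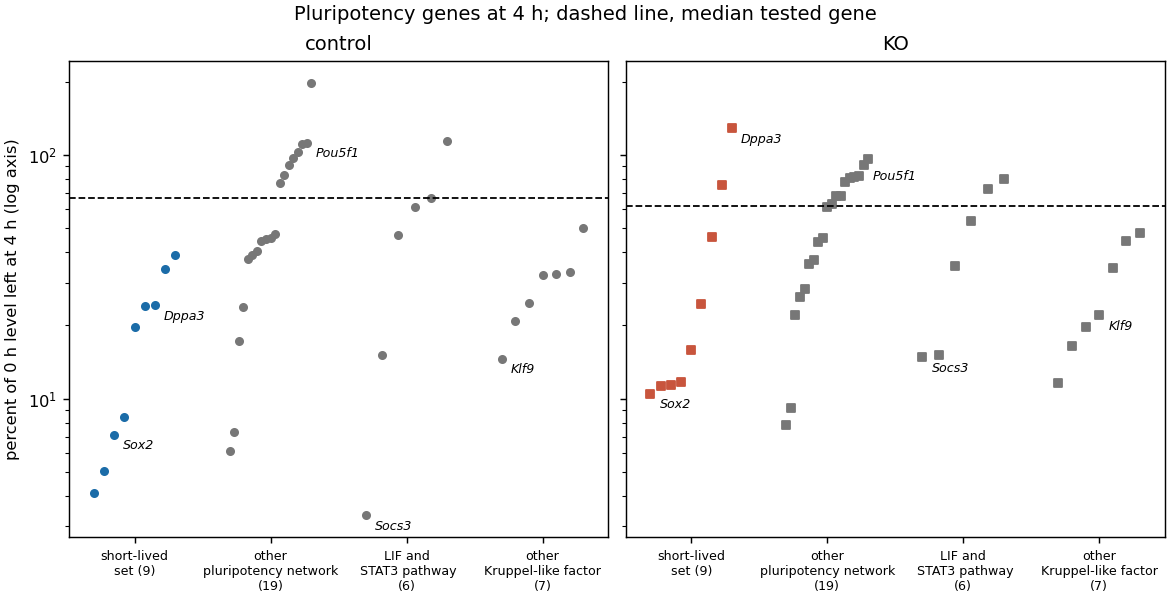
Percent of the 0 h level left at 4 h (log axis) for the 9 short-lived mRNAs (coloured) and for tested genes of 3 related lists (grey), in control (circles) and KO (squares), with the median tested gene as a dashed line. Sox2 at 7.12% and Pou5f1 at 112% lie far apart in control. By mean share Socs3 at 3.33% lies below all 9 there, though not in every pair of libraries.

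Of 8 LIF pathway genes, 6 were tested, of which 2 were called lower at 4 h and 3 at 8 h in control and 3 and 4 in KO. The 8 h counts stand beside 53.5% of all tested genes in control and 40.5% in KO. After TMM the counts were 2 and 2 in control and 0 and 1 in KO. Socs3, the feedback inhibitor induced by STAT3, read 85.6 and 213 in control at 0 h and 1.46 and 8.50 at 4 h, the latter on 2 and 11 reads. At 3.33% its mean share left was below that of each of the 9 at 4 h. Klf2 and Mycn nevertheless kept less than Socs3 in 2 of the 4 pairs of libraries, and Sox2 and Dppa3 in 1. In KO the mean share of Socs3 was 14.8%, above Sox2, Klf2, Klf4 and Mycn. Of these only Mycn kept less than Socs3 in all 4 pairs. The receptor chain Il6st kept 66.4% at 4 h in control, the kinase Jak1 114% and Pim1, a kinase gene induced by STAT3, 47.0%.

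Among 14 other Krüppel-like factor genes, 7 were tested. Called lower were 4 at 4 h and 6 at 8 h in control, 5 and 6 in KO, and 2 in each of the 4 comparisons after TMM. The shares of all tested genes on the deposited scale were 11.8% and 53.5% in control and 14.4% and 40.5% in KO. The median log2 change of the 7 at 4 h was −1.61 in control, between the −0.49 of all tested genes and the −2.33 of the 9. Klf9 kept 14.6% at 4 h in control, Klf13 24.7%, Klf3 32.7% and Klf16 33.1%, so that Klf2 and Klf4 kept less than each of these 4 and Klf5 less than 3 of them. Of 10 Myc family and partner genes 2 were tested, and 1 was called lower at 4 h in control. Of 7 other Sall and SoxB genes 4 were tested, and 1 was called lower at 4 h in control and 3 in KO. Sox1, a SoxB gene of neural progenitors, kept 9.05% in KO at 4 h, and in control it stood at a mean of 2.93 before the drug, too low to follow.

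Some of the 9 share sequence with other genes, so that reads could be split or misplaced. At 90% identity or more over at least 200 bases, Dppa3 matched 2 other annotated genes, at up to 98.2% and over up to 451 bases. Sall4 (up to 100% and up to 293 bases), Zfp42 (98.7%, 266), Klf4 (91.3%, 242) and Klf5 (90.0%, 822) matched 1 each. Klf2, Sox2, Mycn and Fbxo15 matched none. Sall4 also overlaps an exon of Gm14261 on the opposite strand, and the sources used here do not give the strand setting of the counting. Sall4 had 3 transcripts in the table, 2 of them listed at 0 in all 12 libraries, and the other genes had 1 each.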

How the data were processed

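The 9 genes and the gene lists were chosen with earlier results of these data known. The authors deposited a normalised signal, in which each library's read counts were divided by a factor of its own. The submitters' processing notes name the build mm9 and the tools DESeq2, HTSeq 0.6.0 and TopHat2 2.1.1. The KAPA RiboErase kit depleted ribosomal RNA and ERCC RNA was added, per the labels' protocols. The table as used here held 0 rows named as ERCC, so how loss was scaled between time points rests on the authors' factors.

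Of 33896 rows, 978 repeats were dropped, and 32918 transcripts were summed by symbol. All values were whole multiples of 1 read (100%, tolerance 0.001 reads). Genes with a mean of at least 10 (6952) were tested with limma 3.58.1 (R 4.3.3, trend and robust options) on log2(value + 1), a scale that understates changes of low genes, in 1 fit of 6 group means, two-sided, with p-values adjusted by Benjamini-Hochberg over the 6952 genes and called below 0.05. Standard errors and 95% intervals are from this fit. Alternatives were pseudocounts of 0.5 and 5, no filter, TMM and DESeq2 1.42.0 size factors, edgeR 4.0.16 (quasi-likelihood, recovered reads), a replicate block, only the groups compared, and leaving out each library. Counts were simulated for the loss in control at 4 h over 6952 genes. Of the changes put in, 41% of 4-fold and 3.8% of 2-fold ones were recovered, and 11.1% of calls were false. The simulation changed 200 genes and held neither the general loss of RNA nor the offsets between libraries seen in the data. Its rates therefore need not hold for the real comparison.

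Named were the 9 genes, Zcchc8, up to 4 tested genes of highest mean per list, and the 5 genes most like their mean profile. Transcripts came from GENCODE M21, and near copies were sought with BLAST+. The 47 samples of other experiments were not analysed here.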

Additional observations from a re-analysis of the deposited data

How the results depend on the processing

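With 2 libraries a group, the loss of Klf2, Klf4, Klf5 and Sox2 at 4 and 8 h kept its direction and its call under every alternative run, in both genotypes. Counts of the 9 mRNAs called moved as follows. At 8 against 4 h in control none was called, but 1 was by edgeR, 2 with only the groups compared, and 0 to 3 on leaving out each library. At 4 h between genotypes none was called, but 1 (Dppa3) was with only the groups compared, and 0 to 1 on leaving out each library. At 8 h between genotypes the 1 higher gene became 0 with no filter, 0 with TMM, 0 with DESeq2 size factors, 2 by edgeR, 2 with only the groups compared, and 0 to 2 on leaving out each library. For the difference of loss at 8 h that range was 0 to 2, and for the loss in control at 4 h 5 to 8 against 8. The log2 change of Fbxo15 in KO reversed to −0.40 at 4 h by edgeR, and at 8 h to 0.76 with TMM and 0.74 with DESeq2 size factors. Its change from 4 to 8 h in KO, −0.43, became 0.026 and 0.018 under those scalings. On leaving out each library, the change of Fbxo15 in KO ran from −1.16 to 1.29 at 4 h and −1.59 to 0.86 at 8 h, that of Dppa3 from −0.50 to 2.18 and −0.67 to 2.01, and at 0 h between genotypes that of Dppa3 from −1.91 to 0.77 and of Fbxo15 from −2.26 to 0.20. The cause was not tested, beyond the low KO 0 h replicate 1 reads of both genes.

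Over genes, same-numbered libraries shared little of their deviation from the group means, with correlations of −0.07 to 0.117 over 15 pairs of groups. That check cannot see an offset common to a whole library, so it does not tell whether replicate numbers pair the libraries. With the replicate block, 2 of the 9 were called at 8 against 4 h in control, and 2 at 8 h between genotypes. Over all tested genes the block raised the genes called lower in the first comparison from 322 to 1226. Those called higher in the second rose from 339 to 754.

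Over all tested genes, 817 (control 4 h), 3718 (control 8 h), 998 (KO 4 h) and 2818 (KO 8 h) were called lower than at 0 h, and with TMM 471, 780, 322 and 396. With only the groups compared the 4 h counts were 424 and 2521. The 294, 52 and 339 genes higher in KO at 0, 4 and 8 h became 94, 48 and 100 with TMM. At this depth Mycn and Dppa3 rest on 3 to 25 reads in the control libraries after the drug.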
